A study of Haemaphysalis flava with 2 samples.

Results

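Contig307 is a unigene, an assembled transcript of 300 nucleotides, described in UniProt as a salivary glands defensin. It was followed in 2 midgut libraries of the hard tick Haemaphysalis flava. One library came from fully engorged ticks (FE), which have finished their blood meal, and was set against one from partially engorged ticks (PE), which have not. Contig307 is 1 of 65535 unigenes with read counts listed for both libraries. It was chosen by its measured reads and RPKM, high in FE and near absent from PE, so those values are a description and carry no test. Of the other unigenes, every one whose Nr or UniProt description (best hits in 2 protein databases) contains the word defensin was set beside it. The annotation named 4 such unigenes, Contig307 included, and 3 of them had expression values.

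Each state was 1 library of polyadenylated RNA, from a set of 60 dissected midguts, 30 per state. The sources used here do not say how many were pooled, nor tick age and sex, the host or the time on the host. With 1 library a state the differences have no replicate check, and no test was run. The FE library had 41432770 reads and the PE library 50397332, as implied by the counts and RPKM values (reads per kilobase of unigene, scaled to library size). All intervals are 95% exact intervals that cover counting error only. Most midgut markers, 38 cathepsin, legumain, longipain, peritrophin, ferritin and midgut-named unigenes, had reads in both libraries. Of these 38, 0 had no read in FE and 4 had none in PE, and 35 reached 1 RPKM in at least 1 library. They were picked by name, and Contig4051 and Contig4052 among them have UniProt hits to a salivary legumain. The abundant cathepsin B (Contig5046), a hemoglobin-digesting protease, had 569 RPKM in FE and 829 RPKM in PE.

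Defensins are short, positively charged, cysteine-rich peptides that disrupt bacterial membranes, and they belong to the innate immune system of ticks and many other animals. They are made as a precursor with a signal peptide and released in mature form. In ticks they are known from the midgut, the salivary glands, the fat body and the hemocytes (blood cells), and the midgut is where bacteria taken up with blood first meet the tick. In Drosophila the genes of such peptides are switched on through the Toll and IMD pathways by transcription factors of the NF-kappa-B family, of which Relish is the one of the IMD pathway.

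The name of Contig307 came from UniProt alone, as the Nr table held no entry for it. Its best hit was the salivary glands defensin of Haemaphysalis longicornis, a tick of the same genus, with an E-value of 1e-14. The alignment took residues 1 to 78 of a protein of 81 residues and bases 31 to 276 of the unigene, forward strand, so it ran over 96.3% of the protein and 82.0% of the unigene. Identity over the 82 aligned columns was 46.34%, or 38 residues. The identity was low for a match within the genus: the 161 unigenes whose best UniProt hit lay in Haemaphysalis longicornis had a median identity of 82.1%, and 16.8% of them were below Contig307. Gene ontology gave it the term defense response, which it shared with 4 other unigenes of the annotation. Unigene sequences were not used here, so no sequence is shown, and reads shared with a near-identical unigene could not be told apart.

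Contig307 had 5214 reads in FE against 3 reads in PE. Scaled to length and library size this was 419.5 RPKM in FE (interval 408 to 431) and 0.198 RPKM in PE (0.0409 to 0.580). The RPKM ratio of FE over PE was 2114, with a counting interval of 723 to 10255. The width of that interval comes from the 3 PE reads, and in PE a single read of Contig307 is worth 0.0661 RPKM.

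In the FE library Contig307 stood at rank 196 by RPKM among the 65535 listed unigenes, with 0.298% of them above it. Its level was 241 times the FE median of 1.74 RPKM, in a library whose most abundant unigene reached 12750 RPKM. In the PE library it stood at rank 58218, shared among 13 unigenes with the same value, and 88.8% of unigenes were above it. The PE median was 1.30 RPKM. Near the bottom of the PE library such counts are common: 5351 unigenes, 8.17% of the table, had 3 reads or fewer there. Contig307 was thus among the most abundant listed midgut transcripts in FE and at the sparsely sampled end of PE. Annotated unigenes outside the expression table could not be ranked. Contig307 is also among the shortest unigenes of the table, with 2 shorter and 117, itself included, of the same length, against a median of 544 nucleotides. By read count, which does not correct for length, its rank was 984 in FE and 60713 in PE.

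**Figure D1:**
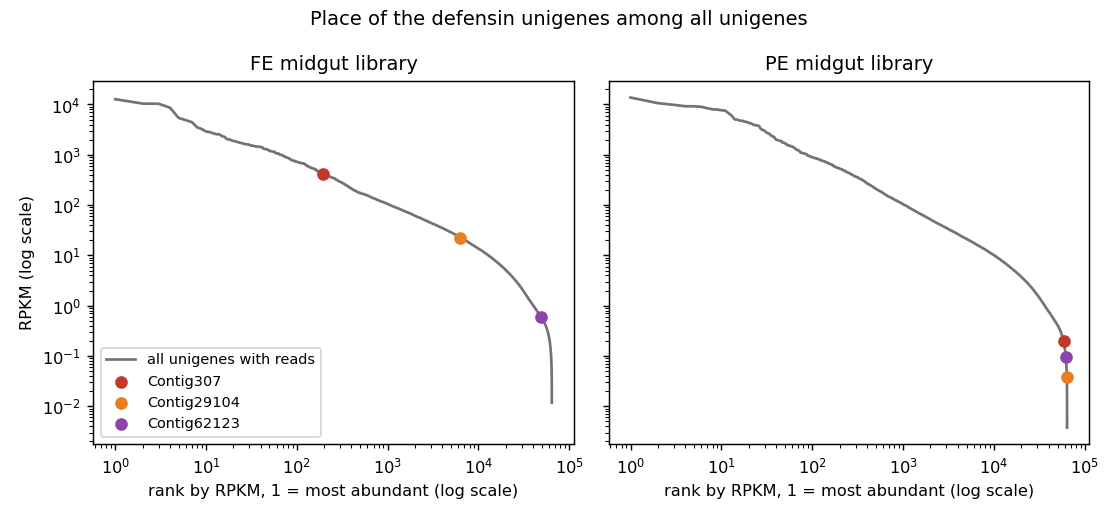
Rank of every unigene with reads (horizontal axis, log scale, 1 is the most abundant) against its RPKM (vertical axis, log scale), in the FE library on the left and the PE library on the right. Contig307 lies at rank 196 in FE and 58218 in PE, and all 3 defensins lie at the lower end of the PE curve.

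Unigenes ranked next to Contig307 in FE were still abundant in PE. Directly above it stood Contig71488, without a description, at 421 RPKM in FE and 148 RPKM in PE, and Contig35, a glutathione S-transferase of the detoxification enzymes, at 421 RPKM in FE and 110 RPKM in PE. The third above was Contig2737, a conserved protein of unknown function, at 424 RPKM in FE and 199 RPKM in PE. Directly below were Contig879, a fatty acid-binding protein, at 419 RPKM in FE and 556 RPKM in PE, and 2 unigenes whose UniProt hits are vitellogenins, the yolk proteins. Of these, Contig837 had 418 RPKM in FE and 1034 RPKM in PE, and Contig30628 had 417 RPKM in FE and 1324 RPKM in PE. Over the 100 unigenes within 50 ranks of Contig307 in FE the median PE level was 381 RPKM, 87 had at least 100 RPKM in PE, and 1 (the serpin Contig1645, described next) had under 1 RPKM in PE.

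On the scale used for all unigenes, log2 of (FE RPKM + 1)/(PE RPKM + 1), Contig307 had 8.45, the highest value of the table, and the next was 8.33. Among 44982 unigenes of at least 1 RPKM in a library the median of this log2 ratio was 0.36 and percentiles 1 and 99 were -3.01 and 3.34. A ratio of 6 or more on this scale was found for 14 unigenes and 8 or more for 3. The highest place depends on the added 1 RPKM. With 0.1 RPKM added Contig307 came in place 4, and by the lower bound of the counting interval it came in place 5. The authors' deposited table gives a fold change of 0.000473 for PE over FE and a false discovery rate of 5.42e-127. A lower false discovery rate stood beside 70 unigenes of the authors' deposited table, 11 of them higher in FE. The sources used here do not name the test behind it.

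The pattern of Contig307, high in FE and nearly absent from PE, was shared by few unigenes. Of 1064 unigenes with at least 100 RPKM in FE, 11 had under 1 RPKM in PE, Contig307 among them. The 11 had 1567 to 10957 reads in FE and 1 to 27 reads in PE, and lengths of 300 to 818 nucleotides. By distance over the 2 log2(RPKM + 1) values, the measure of likeness used here, the nearest was Contig2378 at a distance of 0.34. It is described as an immunoglobulin-binding protein, a tick family that binds host antibodies, and had 8429 reads in FE against 2 in PE, or 341 RPKM in FE and 0.0666 RPKM in PE. Next came Contig2366, without a description, with 8240 reads in FE against 2 in PE, or 317 RPKM in FE and 0.0632 RPKM in PE. The third was Contig1645, a serpin-2 precursor of the serine protease inhibitors, with 10957 reads in FE against 27 in PE, or 455 RPKM in FE and 0.922 RPKM in PE. Contig59748, without a description, had 3677 reads in FE against 1 in PE, or 217 RPKM in FE and 0.0485 RPKM in PE. Contig3408, again an immunoglobulin-binding protein, had 4337 reads in FE against 7 in PE, or 192 RPKM in FE and 0.254 RPKM in PE. Each of the 5 had a lower bound of the FE over PE ratio of at least 339, against 723 for Contig307. Likeness over 2 libraries rests on 2 values a unigene.

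Of the 10 highest log2 ratios, Contig307 and these 5 took the first 6 places. The remaining 4 were Contig3911 and Contig8700, both cystatin-2 precursors that inhibit cysteine proteases, Contig2367, an immunoglobulin-binding protein, and Contig53827, without a description. Contig3911 had 156 RPKM in FE and 0.0970 RPKM in PE, and Contig8700 had 151 RPKM in FE and 0.471 RPKM in PE. Contig2367 had 301 RPKM in FE and 2.11 RPKM in PE, and Contig53827 had 102 RPKM in FE and 0.0671 RPKM in PE. Contig307 was the only unigene of the 10 with a description of an antimicrobial peptide.

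**Figure D2:**
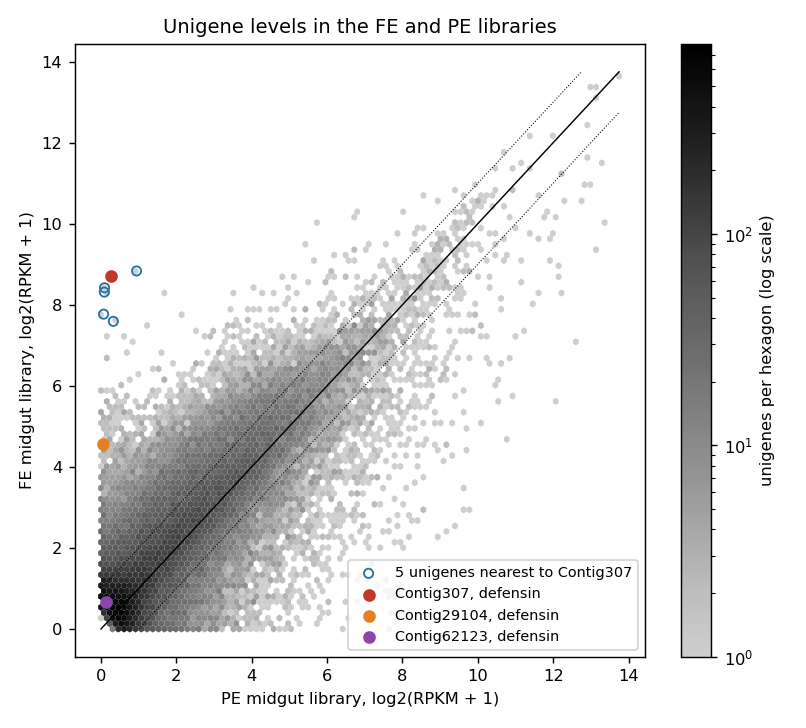
Level of every unigene in FE (vertical axis) against PE (horizontal axis), both as log2(RPKM + 1), with darker hexagons for more unigenes, a solid line of equal level and dotted lines at a 2-fold difference. Contig307 and its 5 nearest unigenes sit apart at the upper left, Contig29104 sits at 22.6 RPKM in FE against 0.0382 RPKM in PE, and Contig62123 lies within the dense lower corner.

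The other defensins had lower levels. Contig29104, 519 nucleotides long, is described in UniProt as a putative tick defensin of Rhipicephalus pulchellus, with 80.56% identity over 108 columns that take in 96.4% of the protein. Its Nr hit is a hypothetical protein of Ixodes scapularis at 38.75% identity, and the alignment lies on the reverse strand of the unigene. It had 487 reads in FE against 1 in PE, or 22.6 RPKM in FE and 0.0382 RPKM in PE, for a ratio of 592 with a counting interval of 106 to 23445. Like Contig307, it was nearly absent from the PE library. In FE the level of Contig307 was 18.5 times that of Contig29104. By log2 ratio Contig29104 stood in place 86 of the table, and by the authors' deposited table its fold change for PE over FE was 0.00169 with a false discovery rate of 2.94e-05.

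Contig62123, 408 nucleotides, is described as a male-specific defensin of Haemaphysalis longicornis, at 53.06% identity over 49 columns. It had 10 reads in FE against 2 in PE, or 0.592 RPKM in FE and 0.0973 RPKM in PE. The ratio was 6.08 (1.30 to 57.1), in the same direction as the other 2 defensins, but it failed the filter of 1 RPKM in a library and rests on 12 reads in all. In the authors' deposited table its false discovery rate was 1. The fourth defensin of the annotation, Contig47884, is described as the midgut defensin of Haemaphysalis longicornis at 80.82% identity over 73 columns, and as a scapularisin precursor in Nr. It has no row in the expression table used here and was not analysed here, so the sum over defensins is a sum over 3 unigenes.

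Summed over these 3 unigenes, defensin stood at 443 RPKM in FE and 0.334 RPKM in PE, or 5711 reads in FE and 6 reads in PE. Contig307 made up 94.8% of the FE sum. By a rule of size, at least a 2-fold difference on the log2(RPKM + 1) scale with a counting interval that excludes 1, 2 of 2 defensins that passed the filter were called higher in FE. Over all 44982 unigenes 25.7% were called higher in FE and 11.1% lower. Both defensins passed the filter only through FE, so this count is no support for a direction. The same holds for 40.5% of all unigenes called higher, which had under 1 RPKM in PE. The balance of all calls also moved with scaling, 69.8% of them higher in FE with the authors' RPKM, 53.9% with a TMM factor (trimmed mean of M-values) and 47.7% after centring on the median. The TMM factor takes 0.39 from the log2 ratio of RPKM of every unigene. The 2 defensin calls were the same under these scalings.

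The other antimicrobial effectors were less abundant than Contig307 in FE. Lysozymes cut the bacterial cell wall. The most abundant lysozyme, Contig270, had 1432 reads in FE against 1510 in PE, or 43.6 RPKM in FE and 37.8 RPKM in PE, for a ratio of 1.15 (1.07 to 1.24), short of the rule of size and below 1 once TMM-scaled. A second, Contig45990, had 33 reads in FE against 41 in PE, also short of it. The remaining 2, Contig77772 and Contig77222, were below the filter, Contig77772 with 1 read in FE against 12 in PE and Contig77222 with 2 in FE against 6 in PE. So 0 of 2 lysozymes past the filter were called in either direction.

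Microplusins and hebraeins, tick antimicrobial peptides rich in histidine and cysteine, were annotated for 4 unigenes, a set chosen after the values were seen, because the pattern for effectors missed those whose Nr name is spelled hebreain or uninformative. Of these, 3 were called higher in FE, also with a TMM factor, but 2 of the 3 passed the filter only through FE, so the count is no support for a direction of the set. Contig35344 had 259 reads in FE against 10 in PE, or 10.5 RPKM in FE and 0.332 RPKM in PE, for a ratio of 31.5 (16.9 to 66.5). Contig35787 had 232 reads in FE against 84 in PE, or 10.5 RPKM in FE and 3.13 RPKM in PE, for a ratio of 3.36 (2.61 to 4.37). Contig51587 had 26 reads (1.36 RPKM) in FE and 0 reads in PE, at least 10.5-fold higher in FE against a floor of 3 reads (exact lower bound 7.98). The most abundant of the set, Contig3975, was called neither at 67.0 RPKM in FE and 46.7 RPKM in PE. Contig307 thus exceeded in FE the level of every lysozyme, microplusin and hebraein found, and in PE it was below all of them but Contig51587, some by a few reads only.

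**Figure D3:**
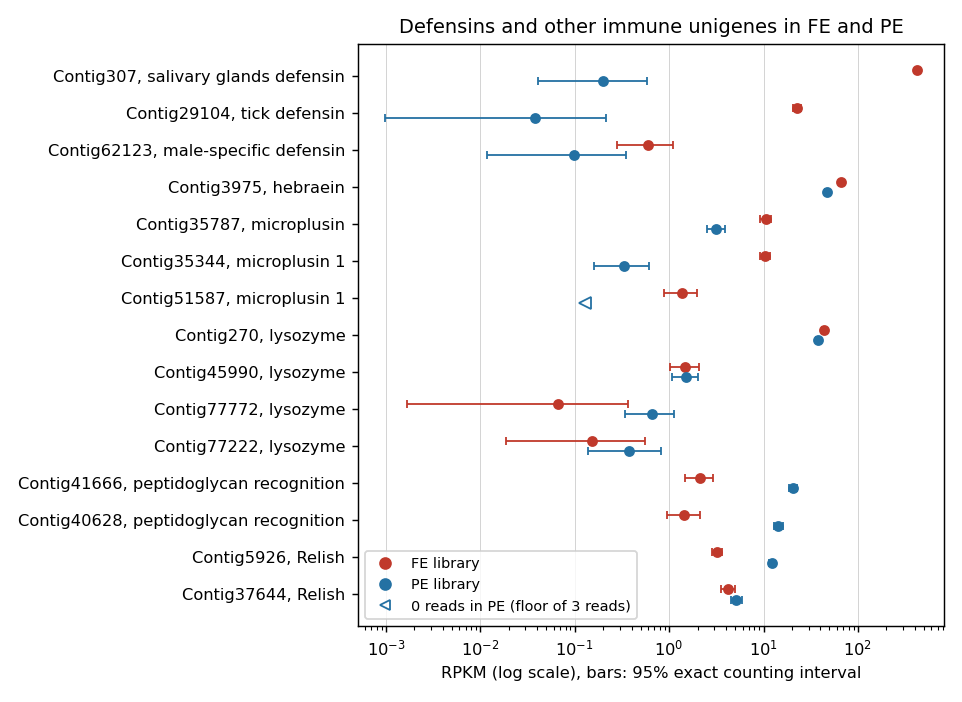
RPKM (horizontal axis, log scale) of defensins, hebraein, microplusins, lysozymes, peptidoglycan recognition proteins and Relish in the FE library (red) and the PE library (blue), with 95% exact counting intervals and an open triangle for 0 reads at a floor of 3 reads. Contig307 has the widest separation, 419.5 RPKM in FE against 0.198 RPKM in PE, while the lysozyme Contig270 has 43.6 RPKM in FE and 37.8 RPKM in PE.

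Recognition proteins, which detect microbes upstream of such effectors, went both ways. Of 37 unigenes matched by name, 34 passed the filter, 12 were called higher in FE and 3 lower, or 35.3% and 8.82% beside 25.7% and 11.1% of all unigenes. Without thioesterases, receptors and endoplasmic reticulum lectins caught by the pattern, a set trimmed after its values were seen, 26 passed with 11 higher and 3 lower (TMM-scaled, 9 and 4), and 7 of the 11 passed only through FE. With either description searched for the whole pattern, 50 of 53 passed, 16 higher and 8 lower, or 32.0% and 16.0%. Of the 16, 8 passed only through FE. Both peptidoglycan recognition proteins, sensors of the bacterial cell wall, were lower in FE. Contig41666 had 35 reads in FE against 414 in PE, or 2.12 RPKM in FE and 20.6 RPKM in PE, and Contig40628 had 26 reads in FE against 316 in PE, or 1.44 RPKM in FE and 14.4 RPKM in PE. The most abundant of the 37 unigenes, the ML domain protein Contig5701, of a lipid-binding family, had 208 RPKM in FE and 707 RPKM in PE. In the other direction, the ixoderin Contig6667, a tick lectin with a fibrinogen-related domain, had 632 reads in FE against 7 in PE, or 13.3 RPKM in FE and 0.121 RPKM in PE, for a ratio of 110 (53.0 to 274). Of 13 thioester-containing, alpha-2-macroglobulin and C3-like unigenes, 7 were called higher in FE (TMM-scaled, 6), or 53.8% beside 25.7% of all unigenes. Of the 7, 5 passed only through FE. The 2 most abundant were called neither: Contig18161 had 111.5 RPKM in FE and 85.8 RPKM in PE, and Contig17052 had 103 RPKM in FE and 91.3 RPKM in PE. Among those called, and picked after its values were seen, the thioester-containing protein Contig3955 had 18.9 RPKM in FE and 3.86 RPKM in PE, a ratio of 4.90 (4.62 to 5.20).

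Most transcripts of the signaling pathways were called neither higher nor lower in FE. Of 25 unigenes of the Toll, NF-kappa-B and JAK/STAT pathways, 20 passed the filter, 1 was called higher in FE, 2 lower and 17 neither (TMM-scaled, 1 higher and 5 lower), beside 25.7% and 11.1% of all unigenes called higher and lower. Their median log2 ratio was -0.36, beside 0.36 over all unigenes that passed the filter. With 1 RPKM added, a call of neither at low levels does not mean that the levels were close. The Toll unigenes Contig43307 and Contig11799, picked after their values were seen, were both called neither. Contig43307 had a ratio of 7.14 (4.10 to 13.3), and Contig11799 was 2.47-fold higher in PE (2.11 to 2.92). Relish itself, Contig5926, had 243 reads in FE against 1119 in PE, or 3.23 RPKM in FE and 12.2 RPKM in PE, 3.79-fold higher in PE (3.29 to 4.37). A second Relish unigene, Contig37644, had 4.25 RPKM in FE and 5.15 RPKM in PE and was called neither. The member most abundant over both libraries, the Toll receptor Contig5848, had 11.3 RPKM in FE and 18.6 RPKM in PE. The suppressor of cytokine signaling First_Contig2012, of a family that dampens JAK/STAT signaling, had 6.51 RPKM in FE and 1.74 RPKM in PE, for a ratio of 3.74 (2.81 to 5.05). The adaptor MyD88 of the Toll pathway (Contig6096) had 15.1 RPKM in FE and 11.9 RPKM in PE, and was picked after its values were seen. The other unigene called lower, Contig48743, is described as the NF-kappa-B inhibitor I-kappa-B and had 29 reads in FE against 412 in PE, 11.7-fold higher in PE (8.01 to 17.7). It was named after its values were seen.

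Unigenes matched by a pattern for salivary glands and secreted salivary families did not share a direction. Of 110 such unigenes, 96 passed the filter, 38 were called higher in FE, 28 lower and 30 neither. These were 39.6% higher and 29.2% lower, beside 25.7% and 11.1% of all unigenes. Without Contig307 the counts were 37, 28 and 30 (TMM-scaled, 30 higher and 30 lower). The pattern also caught 4 unigenes with sialo- names that are not salivary, 3 dentin sialophosphoprotein-like and an O-sialoglycoprotein endopeptidase. Without these and Contig307, a set trimmed after its values were seen, 36 were called higher and 28 lower, and 18 of the 36 passed only through FE. The trimmed set still holds unigenes whose UniProt hit is not salivary, such as Contig71451, a thioredoxin, and Contig7225, an exosomal exoribonuclease subunit. The summed level without Contig307 was 5955 RPKM in FE and 20250 RPKM in PE, the opposite direction to Contig307. That sum rests largely on its most abundant members, and the median log2 ratio of the same set was 0.51. The most abundant, the putative secreted salivary gland protein Contig2521, had 688 RPKM in FE and 9207 RPKM in PE. Contig5940, of the same description, had 561 RPKM in FE and 3722 RPKM in PE. The lowest ratio was that of Contig13592, of the same description, with 127 reads in FE against 20280 in PE, or 4.30 RPKM in FE and 564 RPKM in PE, 131-fold higher in PE (110 to 158). The names come from database hits, not from a dissection, and the part of salivary tissue in the level of Contig307 was not tested.

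Defensins are also made by hemocytes and fat body, and a pattern for markers of both was read in the same way. In bulk tissue, more cells of a type and more RNA per cell cannot be told apart. Of 29 unigenes 16 passed the filter, 8 were called higher in FE and 2 lower. The pattern also caught 2 vitellogenin receptors, which are not fat body markers: First_Contig2458, called higher, and Contig5844, called neither. The hemocyte part, 23 unigenes for hemocytins, hemolectins, peroxinectins, clotting factors and astakine, split off after its values were seen, had a summed level of 52.3 RPKM in FE and 19.9 RPKM in PE. Of its 11 members past the filter 7 were called higher in FE (TMM-scaled, 5), or 63.6% beside 25.7% of all unigenes. All 7 passed only through FE, so this count is no support for a direction. The 11 hemocytin and hemolectin unigenes, clotting proteins typical of hemocytes, summed to 7.37 RPKM in FE and 2.14 RPKM in PE, and 1 of them passed the filter. Peroxinectins, peroxidases with a role in cell adhesion, included Contig21172 with 351 reads in FE against 2 in PE, or 6.35 RPKM in FE and 0.0297 RPKM in PE. Vitellogenins, made in the fat body and also in the gut of ticks, had 969 RPKM in FE and 3006 RPKM in PE over the 4 unigenes of the list. The most abundant member of the whole list was 1 of them, Contig40383. It had 549 RPKM in FE and 1678 RPKM in PE and was called lower. The list read UniProt only where Nr gave no description, so it left out vitellogenin hits such as Contig837. With either description searched, the whole hemocyte and fat body pattern held 58 unigenes, of which 43 passed the filter. Of these, 21 were called higher in FE and 11 lower, or 48.8% and 25.6% beside 25.7% and 11.1% of all unigenes. Of the 21, 12 passed only through FE. The 58 unigenes summed to 9194 RPKM in FE and 24040 RPKM in PE. The summed hemocyte markers came to more RPKM in FE than in PE, at levels far below that of Contig307. The sum includes the members that passed only through FE, so it is no support for a direction either. The part of hemocytes in the level of Contig307 was not tested. The midgut markers went both ways, with 12 called higher in FE and 14 lower, or 34.3% and 40.0% beside 25.7% and 11.1% of all unigenes. Of the 12, 7 passed only through FE, and of the 14, 5 passed only through PE. TMM-scaled, 9 were higher and 14 lower, beside 8218 and 7038 of all 44982 unigenes. Longipain, a cysteine protease that digests blood (Contig8241), had 527 reads, or 42.3 RPKM, in FE and 0 reads in PE, at least 214-fold higher in FE against a floor of 3 reads (exact lower bound 173). The midgut serine proteinase-2 unigene First_Contig2802 had 3.16 RPKM in FE and 251 RPKM in PE.

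**Figure D4:**
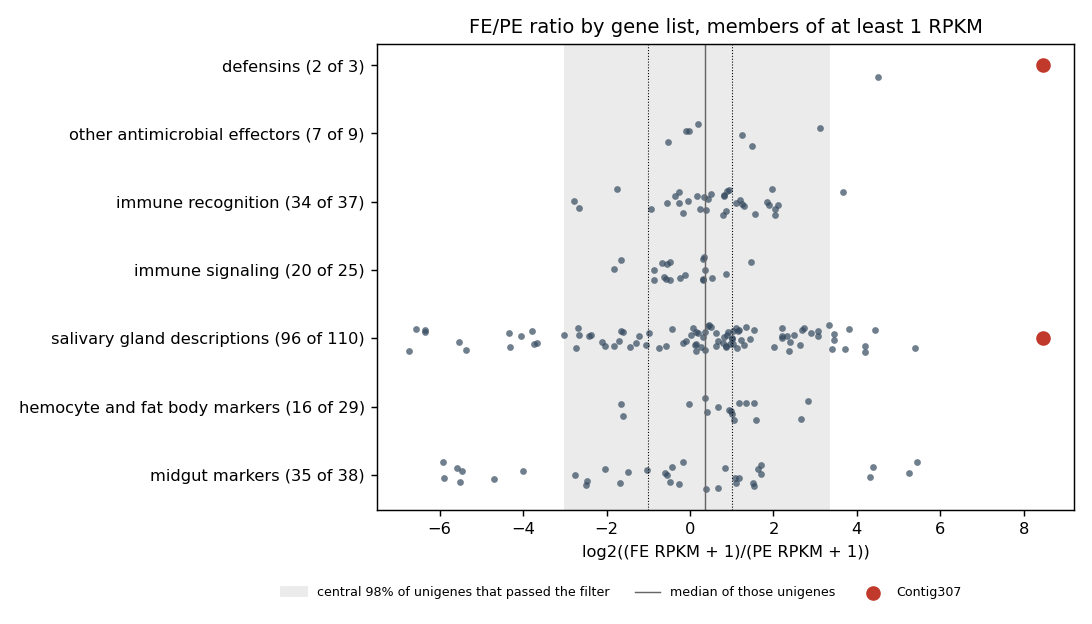
The log2 of (FE RPKM + 1)/(PE RPKM + 1) for each unigene of at least 1 RPKM in a library (horizontal axis), by gene list (vertical axis, with members passing of all members), with the grey band from percentile 1 to percentile 99 of all such unigenes, the grey line at their median of 0.36 and dotted lines at a 2-fold difference. Contig307 (red, in both lists that hold it) lies at 8.45, to the right of all other points, and the salivary list spreads to both sides. Unlike the other pattern lists, the row of other antimicrobial effectors was searched in either description. That row includes Contig14739 and Contig33741, whose UniProt names refer to regulation of antimicrobial peptide synthesis rather than to an effector.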

How the data were processed

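Per the file headers, the authors deposited read counts per unigene, whole numbers with no normalization, and RPKM values beside them. The submitters' processing notes name CASAVA 1.8, and for the assembler, the aligner and the counting the tool is not given in the sources used. The authors also deposited, per unigene, the RPKM ratio (PE divided by FE), its p-value and false discovery rate from an unnamed test, and percent identity to the best Nr and UniProt hits. The listed counts make up 86.8% and 87.0% of the implied FE and PE totals, and 3784 of 26652 UniProt entries belong to unigenes outside the expression table, which were not analysed here.

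Totals were implied from counts, RPKM and length. Ratios have exact Clopper-Pearson (conditional binomial) intervals from scipy 1.17.1, and without molecular identifiers these cover counting error only. A unigene was called at a log2 ratio of at least 1 or at most -1, with 1 RPKM added, an interval that excludes 1 and at least 1 RPKM in a library. TMM factors came from edgeR 4.0.16. Lists are word patterns on the Nr description, or UniProt where Nr gave none (defensins: either). Named unigenes are the defensins, the 10 highest log2 ratios, the 5 nearest to Contig307, 3 ranks above and 3 below it in FE, and of each list the most abundant member and those of highest and lowest ratio at 5 RPKM or more in a library; any other was chosen after its values were seen. Members and lists were chosen with earlier results of these data known.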

Additional observations from a re-analysis of the deposited data

How the results depend on the processing

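No paired analysis was possible because each state has 1 library, and for the same reason no replicate could be left out. The log2 ratio of Contig307, 8.45 with 1 RPKM added, was 10.46 with 0.1 RPKM and 6.35 with 5 RPKM added, and 8.22 with a TMM factor. Its place by that ratio, first in the table, was 4 with 0.1 RPKM added and 5 by the lower bound of the counting interval (both added after seeing the data). Its rank in FE was 984 by read count, and among unigenes with a UniProt description, also added later, it was 160 in FE and 20837 in PE. Unigenes called higher and lower in FE, 11551 and 4992, came to 4743 and 2057 with 5 RPKM added, 7133 and 7806 after centring on the median, and 7437 and 3103 with a filter at 5 RPKM. The 2 defensin calls stayed under each alternative run. With either description searched, 3 effectors in place of 0 were called higher. Depth limits the PE side most: with 3 reads the PE level of Contig307 is known only to within 0.0409 to 0.580 RPKM.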
